A study of Mus musculus with 12 samples.

Results

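The comparison described here was between the P9 and P10 sub-populations of ML23, a mouse acute myeloid leukemia line. It used 6 of the 12 sorted libraries of the study, P9 replicates 1 to 3 and P10 replicates 1 to 3, chosen by their labels. ML23 was built by overexpressing Meis1, HoxA9 and HoxB5 in marrow cells that carry rtTA, and was passaged in C57BL/6 mice. P9 was gated as CD9+ cKit+ Mac1+ CD48-, and P10 as CD9- cKit+ Mac1+ CD48+. The other sub-populations, P11 (CD9- cKit+ Mac1- CD48+) and P12 (CD9- cKit- Mac1- CD48+), lacked Mac1 and enter below only as reference levels. No group had a further treatment, and neither animal ages nor the mouse behind each library were given, so all values describe cells of 1 leukemia line. Each library was made from 100 sorted cells by poly(A)-primed full-length cDNA amplification with 14 cycles. Expression was measured in CPM, alignments to a gene per 1000000 alignments of the library, for 20202 genes, and 12429 genes with at least 1 CPM in at least 3 of the 6 libraries were tested. Because 100 cells were pooled per library, fewer cells expressing a gene and less RNA of it per cell cannot be told apart.

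Mac1 is the integrin CD11b/CD18, carried by both neutrophils and monocytes, so the question is which myeloid programs separate Mac1+ leukemia cells with opposite CD9 and CD48. In normal marrow, granulocyte-monocyte progenitors give rise to both lineages. Neutrophil precursors fill their granules in order, with primary granules made at the promyelocyte stage and secondary and tertiary granules made later under the factor C/EBPε. Monocytes instead require IRF8 and KLF4, signal through the CSF1 receptor, and express a large lysosomal and antigen-presentation apparatus.

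The 6 libraries held about 13650000 to 21310000 alignments, so that 1 CPM stood for 13.7 to 21.3 alignments, with P9 replicate 1 the shallowest and P10 replicate 2 the deepest. The 10 most abundant genes took 13.5 to 14.8% of the alignments in P9 and 5.87 to 6.15% in P10, and 10 CPM was reached by 6648 to 6947 genes in P9 and 8236 to 8357 genes in P10. Libraries of different groups lay 1.60 ± 0.085 apart (root mean square log2 difference over the genes tested, SD, 9 pairs), against 0.595 ± 0.097 within P9 and 0.478 ± 0.158 within P10 (3 pairs each). By this distance P10 replicate 3 stood apart, at 0.586 and 0.551 from the other P10 libraries, which were 0.296 apart. P9 replicate 3 did not, at 0.708 and 0.533 from the other P9 libraries, which were 0.545 apart. In the levels of some gene lists, 2 of the 6 libraries stood apart from their group. P10 replicate 3 held more of most neutrophil granule transcripts than the other P10 libraries, and a summed level of the mitosis genes of 2538 CPM against 1559 and 1540 CPM. P9 replicate 3 held more of the mitosis transcripts than the other P9 libraries, with 3215 CPM against 1544 and 1551 CPM. The study's methods describe cells from 3 diseased mice, but the labels do not tie a library to a mouse, so p-values measure only the spread between these libraries. Without P10 replicate 3 the test called 1183 genes higher in P9 and 4319 higher in P10, and without P9 replicate 3 it called 1127 and 4570.

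Cd9 and Cd48 followed the gates, and Kit differed between groups that were both gated positive for it. Cd9, the tetraspanin used to gate P9, was at 223, 301 and 252 CPM in P9 and at 1.26, 1.60 and 8.45 CPM in P10. The groups did not overlap, and the difference was 80.2-fold (log2 difference 6.33 ± 0.54, SE; adjusted p = 2.5e-05), or 134-fold without P10 replicate 3. Here and below, differences are P9 minus P10 on the log2(CPM + 0.5) scale, tested with limma and adjusted over the 12429 genes, and a gene was called when the adjusted p was below 0.1 and the levels differed by over 2-fold. Cd48, the SLAM-family protein used to gate P10, was at 4.32, 3.19 and 4.32 CPM in P9 and at 103, 97.4 and 96.3 CPM in P10 (22.5-fold higher in P10; adjusted p = 6.5e-07). Of the Mac1 chains, Itgam was at 2666, 2735 and 2617 CPM in P9 against 1108, 1114 and 1330 CPM in P10 (2.26-fold, called), while Itgb2 was 1.84-fold higher in P9, below the fold limit. Kit was gated positive in both groups, yet it was at 67.0, 50.3 and 46.4 CPM in P9 and at 8.44, 8.07 and 21.5 CPM in P10 (4.57-fold; adjusted p = 0.00073). The P10 mean of Kit lay nearer to that of P12, the cKit- cells (5.19 ± 0.66 CPM, SD, n = 3), than to that of P11, the cKit+ cells without Mac1 (63.2 ± 23.2 CPM). Because CD9 and CD48 were gated in opposite directions, the differences of Cd9 and Cd48 check the labels and are not findings. Kit and the Mac1 chains were gated positive in both groups, so their differences do not check the labels. The cause of the Kit difference was not tested.

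Of the factors that made the line, Meis1 was at 247, 242 and 102 CPM in P9 and at 481, 554 and 404 CPM in P10 (2.60-fold higher in P10; log2 difference -1.38 ± 0.32; adjusted p = 0.0049). This call rested on P9 replicate 3, since the difference without it was -0.96, under the fold limit. Hoxa9 was low in all 6 libraries, at 0.561 to 2.56 CPM, with no call. Reads of the introduced and the endogenous copies of these genes cannot be told apart.

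**Figure D1:**
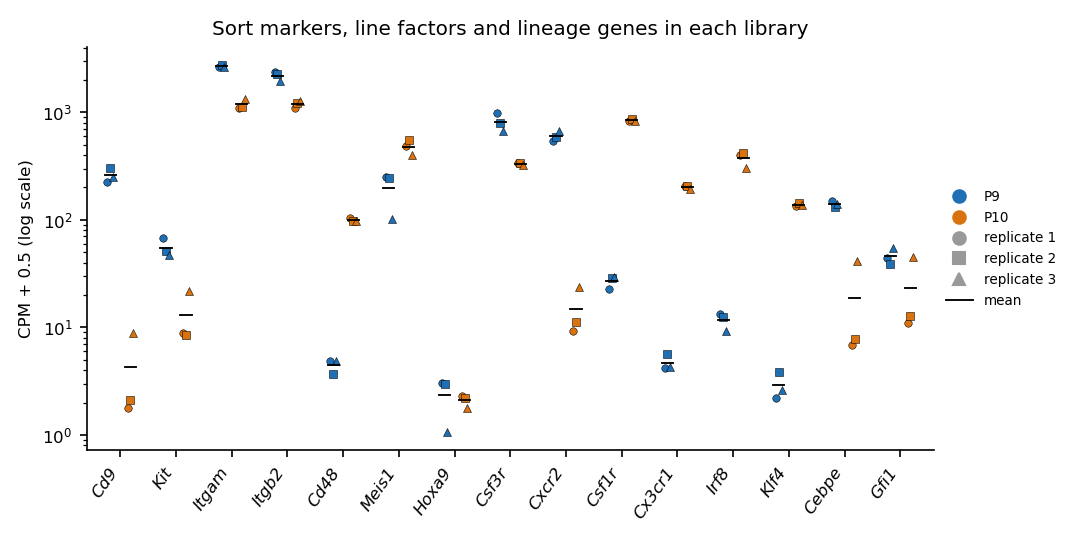
Level of 15 genes (CPM + 0.5, log axis) in each P9 library (blue) and P10 library (orange), with a symbol per replicate and a bar at the group mean. Cd9 and Cd48 separate the groups in opposite directions, while P10 replicate 3 (orange triangle) lies above the other P10 libraries for Cd9, Kit, Cebpe and Gfi1.

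Over all genes tested, 1110 (8.93%) were higher in P9 and 4315 (34.7%) were higher in P10, and the median log2 difference was -0.60. With the libraries rescaled by their median ratios, 1502 (12.1%) were higher in P9 and 3179 (25.6%) higher in P10, and the median moved by 0.32 to -0.29. P10 thus held 79.5% of the calls before rescaling and 67.9% after it. All 1110 P9 calls and 3179 of the 4315 P10 calls were also made after rescaling. The P9 set was smaller but held more of the very large differences, with 16 genes at 64-fold or more against 5 in the P10 set. In the other fold classes the P10 set was larger, with 524 genes at 8-fold or more against 216. Without overlap between groups, all 3 P9 libraries lay above P10 for 15.8% of genes and all 3 P10 libraries lay above P9 for 55.3%, together 71.1%.

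**Figure D2:**
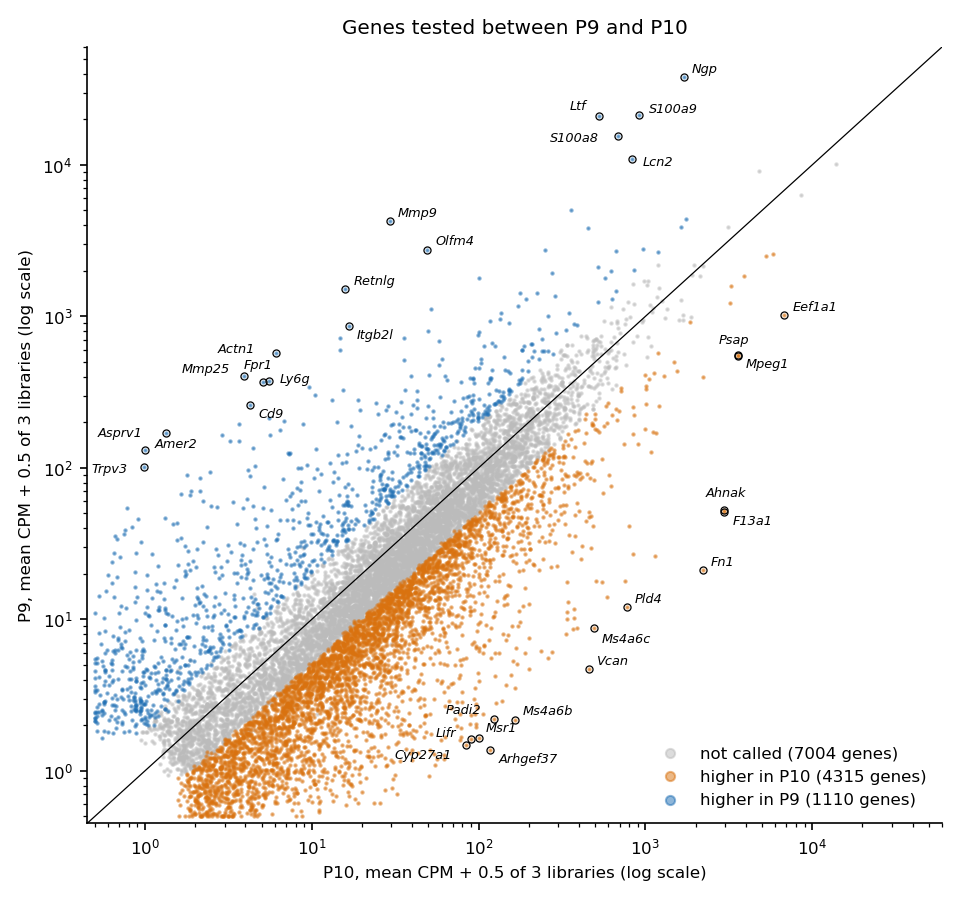
Mean level of each of the 12429 genes tested in P9 (vertical) against P10 (horizontal), both as CPM + 0.5 on log axes; colours give the call, the line marks equal levels, and named genes are those with the largest differences or the highest levels among the calls. The genes called higher in P9 number 1110 and those called higher in P10 number 4315.

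The genes with the largest differences towards P9 were mostly neutrophil genes. Mmp9 (chromosome 2, 164940780 to 164955850, plus strand, mm10), which encodes gelatinase B of tertiary granules, was at 4850, 4228 and 3674 CPM in P9 and at 15.3, 34.4 and 36.8 CPM in P10, a 154-fold difference (log2 difference 7.27 ± 0.30; adjusted p = 9.1e-07). Mmp25, a membrane-bound matrix metalloprotease of leukocytes, was at 450, 398 and 370 CPM in P9 and at 1.48, 2.77 and 6.04 CPM in P10 (116-fold). The genes given here for the largest differences or highest levels were chosen among calls without overlap between groups, so its absence is not a finding. Retnlg, a resistin-like protein of mouse neutrophils, was at 1287, 1614 and 1635 CPM in P9 against 6.19, 10.2 and 29.7 CPM in P10 (116-fold). Olfm4, a protein of a subset of neutrophil granules, was at 2440, 2882 and 2966 CPM against 13.8, 24.0 and 108 CPM (82.0-fold). For both, P10 replicate 3 was the highest P10 library and still lay far below P9, and without it the differences were 177-fold for Retnlg and 147-fold for Olfm4. Without P10 replicate 1 the log2 difference of Olfm4 was 5.74 in place of 6.36.

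Besides Cd9, Mmp25 and the channel described below, the surface proteins in this set were the formyl peptide receptor gene Fpr1 (74.3-fold), the mouse neutrophil antigen gene Ly6g (75.3-fold) and Itgb2l, an integrin beta chain close to Itgb2 (70.1-fold, and 119-fold without P10 replicate 3). Fpr1 was at 334, 401 and 377 CPM in P9 and at 3.67, 3.99 and 6.10 CPM in P10, and had the smallest standard error of the 12 (log2 difference 6.22 ± 0.19). The other members lie outside the usual granule and receptor genes of neutrophils, though Asprv1 is counted below in the neutrophil maturation list. Amer2, which encodes an APC-binding protein, was at 139, 147 and 108 CPM in P9 and at 0.110, 0.704 and 0.672 CPM in P10 (137-fold). Actn1, the actin cross-linker alpha-actinin 1, was at 642, 609 and 466 CPM against 2.96, 3.47 and 10.4 CPM (107-fold). Trpv3, a cation channel gene best known from skin keratinocytes, was at 116, 134 and 53.7 CPM against 0.603, 0.845 and 0 CPM, and Asprv1, a retroviral-like aspartic protease gene, was at 205, 225 and 81.4 CPM against 0.438, 1.36 and 0.728 CPM (105-fold and 121-fold). Trpv3 and Asprv1 were lowest in P9 replicate 3. The P10 means of Amer2, Trpv3 and Asprv1 were below 1 CPM, so their folds depend on the pseudocount of 0.5. Amer2 had a log2 difference of 7.10, against 8.00 and 5.73 with pseudocounts of 0.1 and 2. The values were 6.71, 7.86 and 5.29 for Trpv3 and 6.92, 7.49 and 5.81 for Asprv1.

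By abundance, the P9 set was led by Ngp, a neutrophil granule protein, which alone took 3.79% of the P9 alignments against 0.169% in P10. It was at 45121, 35758 and 32932 CPM in P9 and at 263, 491 and 4331 CPM in P10 (45.6-fold; log2 difference 5.51 ± 0.86; adjusted p = 0.00064). The difference was 104-fold without P10 replicate 3, and without P10 replicate 1 the log2 difference was 4.69. Next came S100a9 (52.3-fold), the lactoferrin gene Ltf (63.5-fold), S100a8 (46.7-fold) and the lipocalin gene Lcn2 (13.9-fold). The differences without P10 replicate 3 were 127-fold for S100a9, 122-fold for Ltf and 108-fold for S100a8, and without P10 replicate 1 the log2 differences of these 3 genes were 4.84, 5.37 and 4.75.

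The 12 genes with the largest differences towards P10 were in part of the monocyte and macrophage list counted below and otherwise of varied function. Fn1, F13a1, Ms4a6b and Ms4a6c belong to that list. Fn1 (chromosome 1, 71585520 to 71653200, minus strand), encoding fibronectin, was at 15.6, 12.5 and 33.8 CPM in P9 and at 2452, 2507 and 1656 CPM in P10, a 112-fold difference (log2 difference -6.81 ± 0.34; adjusted p = 2.1e-06). Vcan, encoding the matrix proteoglycan versican, was at 3.30, 3.08 and 6.23 CPM against 512, 466 and 393 CPM (101-fold). P10 replicate 3 was the lowest P10 library for both, and still lay far above every P9 library. F13a1, the coagulation factor XIII A chain found in monocytes, was at 46.0, 54.7 and 50.3 CPM in P9 and at 3238, 3183 and 2484 CPM in P10 (58.1-fold; log2 difference -5.86 ± 0.14). Msr1, a scavenger receptor of macrophages, was at 0.806, 1.16 and 1.46 CPM against 88.5, 87.2 and 124 CPM (61.3-fold). Its P9 level was near 1 CPM, so that the pseudocount of 0.5 reduces the fold given.

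The remaining genes of this set were Ms4a6b and Ms4a6c, members of a family of tetraspanning proteins (75.2-fold and 56.6-fold), Pld4, an endolysosomal exonuclease gene (65.5-fold), Cyp27a1, a sterol hydroxylase gene (63.3-fold), Lifr, the leukemia inhibitory factor receptor gene (56.4-fold), Padi2, a protein-arginine deiminase gene (56.3-fold), Arhgef37 (88.0-fold) and Ahnak, a very large scaffold protein gene (57.5-fold). By abundance the P10 set was led by the elongation factor gene Eef1a1, at 914, 972 and 1162 CPM in P9 and 6635, 7485 and 6321 CPM in P10 (6.72-fold), followed by the lysosomal prosaposin gene Psap (6.53-fold) and the macrophage perforin gene Mpeg1 (6.54-fold). Absence of overlap between groups was a condition for entering these sets. The P9 means of Arhgef37, Cyp27a1, Lifr, Ms4a6b and Padi2 were below 2 CPM, so the pseudocount reduces their folds too. Eef1a1 and the Ms4a6, Ly6c, Fpr, Stfa, Sirpb1, Lilr and globin families have close copies, and reads may have been split among them.

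The promoters of the leading genes are shown for the letters of the lineage factor motifs they hold, since the C/EBP, PU.1, IRF and AP-1 families act in both lineages. Each run is the 250 bases before the start in RefSeq (GRCm38.p6), 5′ to 3′ on the strand of the gene, and capitals mark a match on either strand to TTGCNNAA (C/EBP), GAGGAAGT (PU.1), a pair of GAAA with 2 bases between (IRF), TGANTCA (AP-1) or CACGTG (E-box). The genes are those with the largest difference in each direction that held a match, among the genes searched for this choice. Mmp9, Fn1, Arhgef37 and Msr1 were not among the genes searched, so their absence here does not mean that they lack a match. Retnlg (chr16:48872358-48872607, plus strand) and Actn1 (chr12:80260364-80260613, minus strand) were higher in P9, and both held a C/EBP match, beginning 246 and 103 bases before the start. Klf4 (chr4:55532476-55532725, minus strand), a monocyte factor gene, and Mfsd7a (chr5:108449101-108449350, minus strand), a transporter-family gene, were higher in P10. Klf4 held an E-box match beginning 182 bases before the start, and Mfsd7a held a C/EBP match beginning 34 bases before it.
Retnlg: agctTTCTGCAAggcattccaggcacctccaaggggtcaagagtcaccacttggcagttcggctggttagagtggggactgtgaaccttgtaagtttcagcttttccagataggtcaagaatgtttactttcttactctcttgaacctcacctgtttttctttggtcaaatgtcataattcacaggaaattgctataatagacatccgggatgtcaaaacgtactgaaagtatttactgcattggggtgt
Actn1: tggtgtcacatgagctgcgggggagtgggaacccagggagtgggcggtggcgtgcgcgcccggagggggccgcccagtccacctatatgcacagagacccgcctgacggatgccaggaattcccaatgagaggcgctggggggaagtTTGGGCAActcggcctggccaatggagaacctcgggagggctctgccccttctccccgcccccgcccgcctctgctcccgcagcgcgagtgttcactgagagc
Klf4: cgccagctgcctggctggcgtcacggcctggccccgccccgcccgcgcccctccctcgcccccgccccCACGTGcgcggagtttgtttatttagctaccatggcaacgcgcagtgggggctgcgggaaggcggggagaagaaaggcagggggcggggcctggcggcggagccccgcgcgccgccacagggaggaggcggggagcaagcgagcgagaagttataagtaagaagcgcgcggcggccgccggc
Mfsd7a: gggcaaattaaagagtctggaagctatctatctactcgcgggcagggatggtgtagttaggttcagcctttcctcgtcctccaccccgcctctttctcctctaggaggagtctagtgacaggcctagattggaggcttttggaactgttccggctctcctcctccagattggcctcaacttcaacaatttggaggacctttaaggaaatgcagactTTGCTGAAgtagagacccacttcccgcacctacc

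Over all promoters, 9005 of the 12429 genes tested had a RefSeq start at the gene. TTGCNNAA was found in 10.2% of the 753 promoters of genes higher in P9, in 7.97% of the 3160 promoters of genes higher in P10 and in 7.54% of all 9005. TGANTCA was found in 7.97%, 4.43% and 4.19%, GAGGAAGT in 4.12%, 2.91% and 2.87%, the IRF letters in 3.05%, 3.45% and 2.89%, and CACGTG in 7.57%, 9.65% and 8.63%. The AP-1 letters thus had the widest spread between the sets. These shares are descriptions of letters within the 250 bases, without a test.

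Genes of secondary and tertiary granules were higher in P9. Of 22 listed, 20 passed the filter, and 16 of these were called higher in P9, none higher in P10, against 8.93% and 34.7% of all genes tested. Their median log2 difference was 4.84, against -0.60 over all genes. The counts of every list below are to be set beside the same shares of all genes tested. Besides the genes given above, Adam8, a membrane protease and disintegrin (11.9-fold), and Mmp8, the neutrophil collagenase, belonged to this list. Mmp8 was at 3907, 3861 and 3715 CPM in P9 and at 504, 538 and 306 CPM in P10 (8.77-fold; adjusted p = 6.8e-06). Camp, encoding the cathelicidin antimicrobial peptide, was at 5119, 4965 and 5006 CPM in P9 and at 44.0, 79.1 and 945 CPM in P10 (33.6-fold; adjusted p = 0.0016). The 4 members not called were Chil3, Hp, Slpi and B4galt1. Chil3, a chitinase-like protein made by both lineages, was at 5349, 6146 and 7585 CPM in P9 and at 10996, 9941 and 4909 CPM in P10, with overlapping groups.

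Genes of neutrophil maturation and recruitment gave the same picture. Of 32 listed, 30 passed the filter, 23 were called higher in P9 and none higher in P10, with a median of 3.29. Mxd1, a MYC antagonist of terminal myeloid differentiation, was at 1138, 1164 and 1061 CPM in P9 and at 46.5, 50.6 and 56.1 CPM in P10 (21.8-fold; log2 difference 4.45 ± 0.11; adjusted p = 1.9e-07). Cxcr2, the chemokine receptor that draws neutrophils from the marrow, was at 535, 592 and 668 CPM against 8.71, 10.7 and 23.1 CPM (44.3-fold). Csf3r, the G-CSF receptor, was at 982, 791 and 672 CPM against 334, 340 and 322 CPM (2.42-fold). The complement receptor gene C5ar1 was 8.10-fold and the receptor gene Mrgpra2b 49.2-fold higher in P9. The other 7 members were not called.

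P10 replicate 3 carried more of the granule transcripts than its group. Of the 16 granule genes called higher in P9, 14 were higher in P10 replicate 3 than in both other P10 libraries, at a median of 4.3 times and at most 15.4 times their mean. The excess amounted to a median of 4.76% of the P9 mean, with a range from -12.1 to 17.6%. S100a9, encoding a calprotectin subunit, was at 18277, 18739 and 27089 CPM in P9 and at 120, 224 and 2386 CPM in P10, and S100a8, its partner, was at 109, 187 and 1767 CPM in P10. Mmp8 and Ltb4r1 went the other way, with P10 replicate 3 the lowest. Without P10 replicate 3, the same number of granule genes (16) and of maturation genes (23) was called higher in P9. The sizes of the differences did move with this library. With P10 replicate 3 left out, the log2 difference of Camp was 6.4 in place of 5.07, that of S100a9 6.99 in place of 5.71 and that of S100a8 6.75 in place of 5.55. The source of these transcripts in P10 replicate 3 was not tested.

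**Figure D3:**
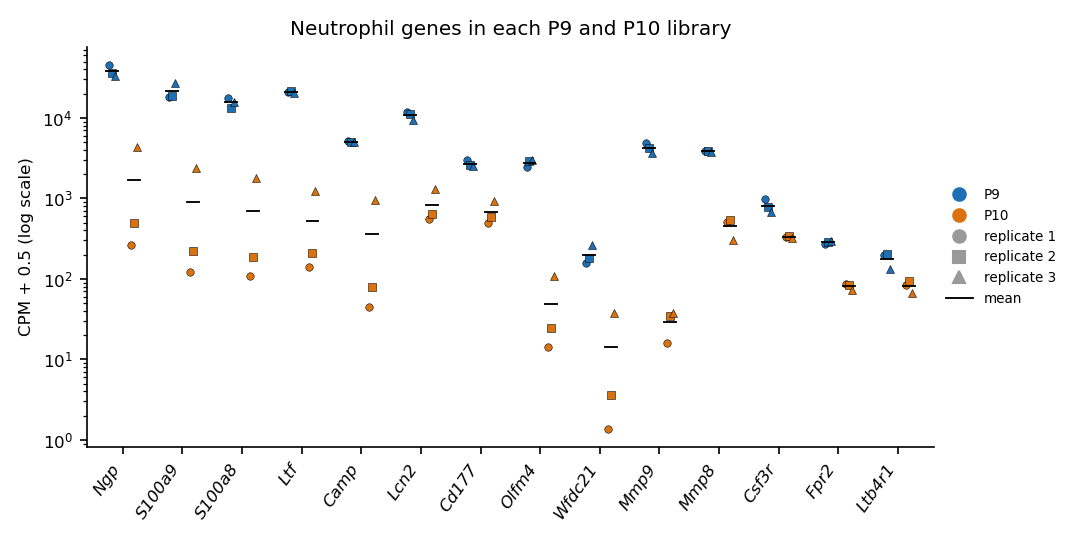
Level of 14 neutrophil genes (CPM + 0.5, log axis) in each P9 library (blue) and P10 library (orange), with a symbol per replicate and a bar at the group mean. P10 replicate 3 (orange triangle) lies above the other P10 libraries from Ngp to Wfdc21 but below them for Mmp8, Csf3r, Fpr2 and Ltb4r1, and below P9 for every gene shown.

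Of 8 S100 genes tested out of 9 listed, 4 were called higher in P9 and 2 higher in P10. S100a6 and S100a11 went with S100a8 and S100a9, at 4.66-fold and 6.85-fold. S100a4, known from motile and macrophage-lineage cells, was at 2.71, 1.16 and 0.730 CPM in P9 and at 63.4, 79.8 and 146 CPM in P10 (48.7-fold higher in P10), and S100a10, an annexin A2 partner, was 18.5-fold higher in P10. The family was thus divided. The groups did not overlap for any of these 6 called genes, as for 71.1% of all genes tested.

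Most genes of the primary granule list were higher in P10. Of 12 listed, 11 passed the filter, and 8 were called higher in P10 and none in P9, with a median of -1.92. Without P10 replicate 3, 1 member was called higher in P9. The cathepsin C gene Ctsc, whose product activates granule serine proteases, was at 7.03, 6.60 and 10.6 CPM in P9 and at 335, 347 and 417 CPM in P10 (43.5-fold; adjusted p = 4.8e-07). Gstm1 was 7.21-fold, the beta-glucuronidase gene Gusb 3.78-fold and the hexosaminidase gene Hexa 2.56-fold higher in P10. Ctsc and these genes are not specific to primary granules, so their calls do not by themselves describe the granules. Mpo, encoding myeloperoxidase, was at 134, 98.6 and 385 CPM in P9 and at 516, 580 and 934 CPM in P10 (3.79-fold), and Prtn3, encoding proteinase 3, was 9.97-fold higher in P10. Both replicate 3 libraries were the highest of their group for Mpo. These levels were below those of P11, where the mean was 6281 CPM for Mpo and 621 CPM for Prtn3.

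The monocyte and macrophage list stood opposite to the neutrophil lists. Of 40 listed, 37 passed the filter, 31 were called higher in P10 and 2 higher in P9, with a median of -3.13. The summed level of the list was 2827 to 3133 CPM in P9 and 16643 to 17745 CPM in P10. P11 and P12 lay between, at 7510 to 7841 CPM and 8437 to 13949 CPM. Csf1r, the receptor of the macrophage growth factor, was at 22.1, 28.2 and 28.9 CPM in P9 and at 825, 870 and 831 CPM in P10 (31.5-fold; log2 difference -4.98 ± 0.13; adjusted p = 1.9e-07). Ctss, encoding cathepsin S of antigen-presenting cells, was at 13.9, 14.6 and 12.2 CPM against 531, 560 and 683 CPM (41.9-fold). Adgre1, the gene of the F4/80 antigen, was 12.3-fold and Cd68, a lysosomal glycoprotein gene of macrophages, 10.7-fold higher in P10. Ly6c2, a marker of classical mouse monocytes, was high in both groups, at 948, 889 and 915 CPM in P9 and 1590, 1982 and 1995 CPM in P10 (2.01-fold), and was not called after rescaling. The members called higher in P9 were Cd14, the LPS co-receptor gene, at 52.8, 52.0 and 68.4 CPM against 13.8, 15.3 and 17.6 CPM, and Spp1, encoding osteopontin (3.85-fold). The complement genes C1qa and C1qb, made by macrophages, were highest in P10 replicate 3, with C1qa at 9.97, 12.2 and 38.4 CPM and C1qb at 39.8, 45.6 and 90.3 CPM in P10. Without that library the log2 difference of C1qa was -1.46 in place of -2.04.

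Of 23 genes of dendritic cells and MHC class II, 15 passed the filter, and 13 were called higher in P10 and 1, Ccr9, higher in P9, a call lost without P10 replicate 2 (median -2.44). The summed level of the list was 56.9 to 69.2 CPM in P9 and 488 to 544 CPM in P10. It was 409 to 758 CPM in P11 and 470 to 877 CPM in P12, so the list was low in P9 and not particular to P10. The peptide-loading chaperone gene H2-DMa was at 6.45, 5.12 and 5.11 CPM in P9 and at 61.1, 69.9 and 66.2 CPM in P10 (11-fold), and its partner H2-DMb1 was 4.22-fold higher in P10. The lectin gene Clec10a and the transcription factor gene Tcf4 were 9.71-fold and 8.25-fold higher. The class II chain H2-Aa itself was low in P10, at 3.73, 4.88 and 21.2 CPM, and the invariant chain gene Cd74 was at 17.5, 22.3 and 79.0 CPM, with P10 replicate 3 the highest for both. Without it their log2 differences were -2.57 in place of -3.29 for H2-Aa and -2.61 in place of -3.27 for Cd74. The dendritic cell genes Xcr1, Clec9a, Siglech, Zbtb46 and Batf3 were among the 8 that did not pass the filter.

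Of 14 cathepsin genes listed, 11 passed the filter, and 8 were called higher in P10 and none in P9 (median -2.34). Ctsa (15.9-fold) and Ctsb (6.79-fold), lysosomal proteases, followed Ctsc and Ctss. Ctsd, encoding the aspartic protease cathepsin D, was at 613, 561 and 541 CPM in P9 and 544, 597 and 649 CPM in P10, with no call.

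**Figure D4:**
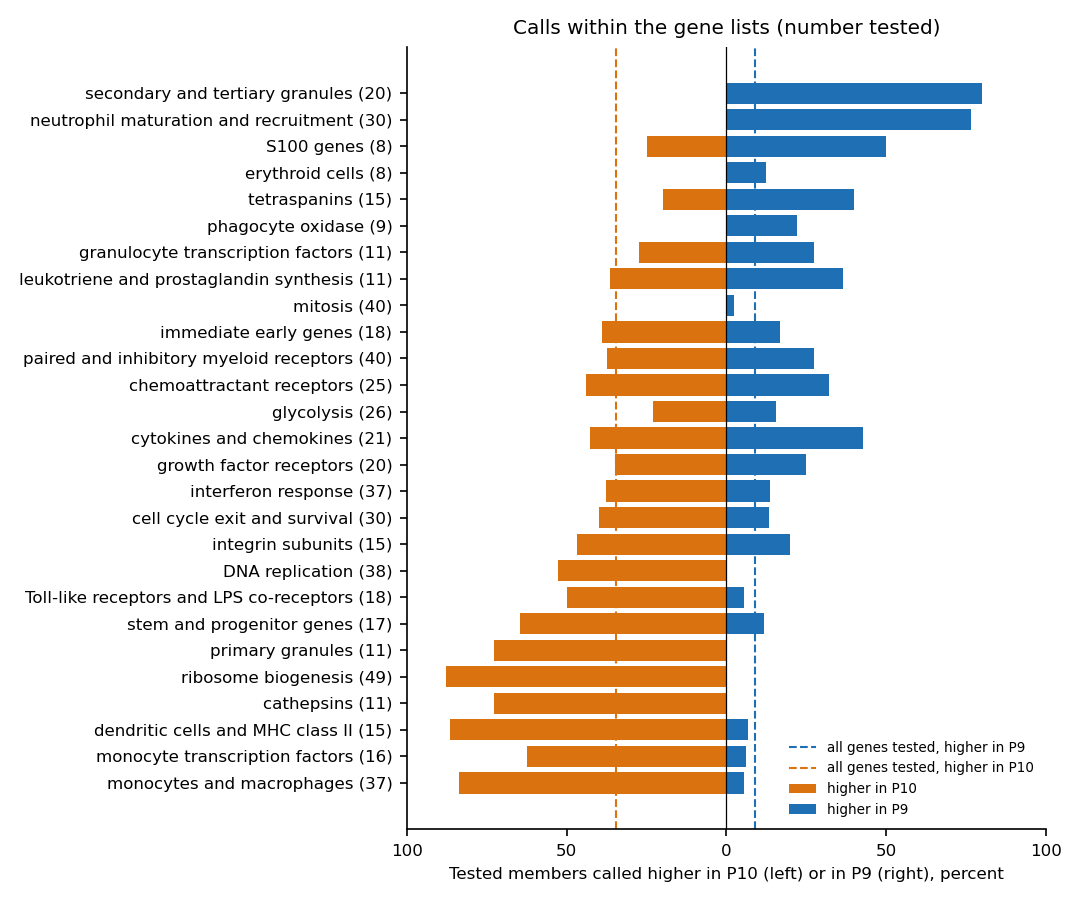
Share of tested members called higher in P9 (blue, right) or higher in P10 (orange, left) for each gene list with at least 8 members tested, ordered by median log2 difference; dashed lines give the shares over all 12429 genes, 8.93% and 34.7%. The secondary and tertiary granule, neutrophil maturation, phagocyte oxidase, mitosis and erythroid lists have calls towards P9 alone, the last 3 with 2, 1 and 1 calls, and the ribosome biogenesis, cathepsin, primary granule and DNA replication lists towards P10 alone.

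Transcription factors were divided between the groups. Of 11 granulocyte factors, all tested, 3 were called higher in P9 and 3 higher in P10 (median 0.27). Cebpe, required for secondary granules, was at 149, 131 and 140 CPM in P9 and at 6.41, 7.23 and 41.4 CPM in P10 (10.7-fold; adjusted p = 0.0011), or 19.2-fold without P10 replicate 3. Klf5 was at 77.6, 59.2 and 44.1 CPM in P9 against 0.877, 1.22 and 3.08 CPM (29.1-fold). Gfi1, a repressor needed for granulocytes, was at 43.6, 38.6 and 54.4 CPM in P9 and at 10.4, 12.4 and 44.8 CPM in P10. It was called at 2.46-fold although P10 replicate 3 lay within the P9 range, with a difference of 3.84-fold without that library and a log2 difference of 0.92, below the fold limit, without P10 replicate 1. Higher in P10 were other members of the C/EBP family: Cebpa was at 21.2, 20.1 and 29.7 CPM in P9 and 165, 166 and 148 CPM in P10 (6.71-fold; adjusted p = 4.4e-06), Cebpg was 3.48-fold and Cebpb 2.96-fold higher in P10. Spi1, encoding PU.1, was at 248, 193 and 175 CPM in P9 and 146, 171 and 162 CPM in P10, with no call.

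Of 18 monocyte factors listed, 16 passed the filter, and 10 were called higher in P10 and 1 higher in P9 (median -2.65). Klf4 was at 1.68, 3.36 and 2.13 CPM in P9 and at 134, 144 and 136 CPM in P10 (49.3-fold; adjusted p = 8.0e-07). Irf8 was at 12.7, 12.0 and 8.70 CPM in P9 and at 401, 419 and 304 CPM in P10 (32.3-fold). Zeb2, needed for monocyte fate, was 13.9-fold and Irf5, a macrophage interferon regulatory factor, 13.1-fold higher in P10. All 3 P10 libraries lay above P9 for these 4, as for 55.3% of all genes tested. The P10 libraries of Klf4 lay within 10 CPM of each other. Egr1 was the exception, at 41.5, 37.4 and 19.3 CPM in P9 and at 4.38, 5.30 and 7.11 CPM in P10 (5.27-fold higher in P9).

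**Figure D5:**
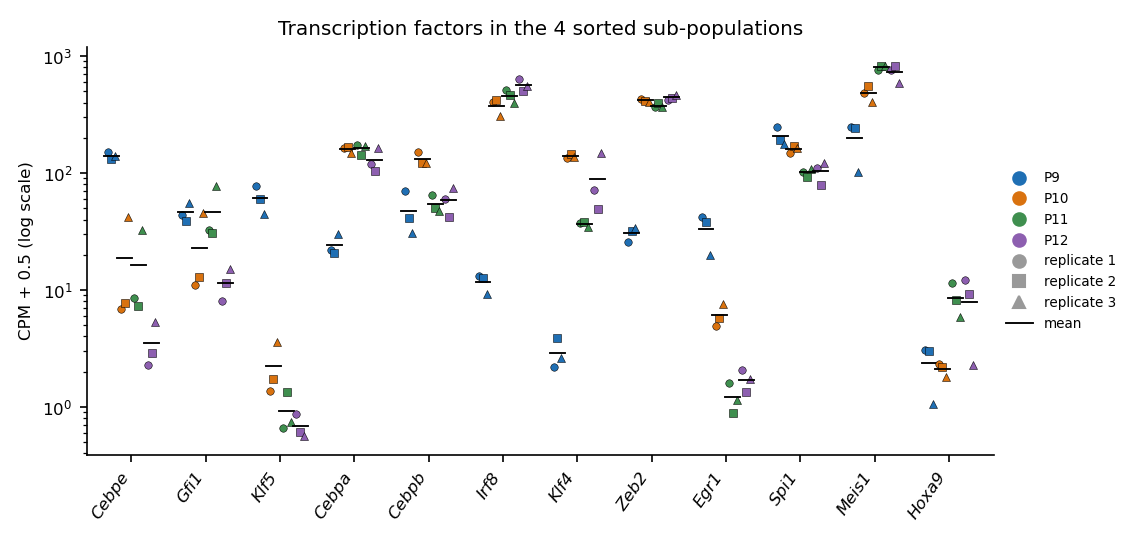
Level of 12 transcription factor genes (CPM + 0.5, log axis) in each library of P9 (blue), P10 (orange), P11 (green) and P12 (purple), with a symbol per replicate and a bar at the group mean. Klf5 and Egr1 are highest in P9, while Irf8, Zeb2, Cebpa and Meis1 are lowest in P9 and at similar levels in the 3 CD48+ sub-populations or higher in the Mac1- ones.

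Of 32 stem and progenitor genes listed, 17 passed the filter, and 11 were called higher in P10 and 2 higher in P9 (median -1.38). Cd34 was at 7.99, 6.49 and 5.22 CPM in P9 and at 91.9, 95.2 and 94.3 CPM in P10 (13.5-fold), with means of 402 CPM in P11 and 355 CPM in P12. Cd93, a C-type lectin-like receptor gene of progenitors (6.37-fold), Cd244a, a SLAM-family receptor gene (16.8-fold), and Myc (5.76-fold) also were higher in P10. The exceptions were the ETS factor gene Erg, at 98.9, 102 and 93.1 CPM in P9 against 13.6, 16 and 33.5 CPM in P10 (4.93-fold), and Hlf, at 3.15, 3.91 and 2.47 CPM against 0, 0 and 0.336 CPM. Erg thus ran against most genes of its list, with all 3 P9 libraries above P10, as for 15.8% of all genes tested.

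Of 23 growth factor receptor genes, 20 passed the filter, and 7 were called higher in P10 and 5 higher in P9 (median -0.59). The share higher in P10 lay at that of all genes tested, 34.7%. Besides Csf1r, those of the interleukin 6 family were higher in P10, with Il6ra at 44.2, 50.8 and 56.1 CPM in P9 and 464, 464 and 443 CPM in P10 (9.03-fold) and the signalling chain gene Il6st at 26.3-fold. The tumor necrosis factor receptor gene Tnfrsf1b was 9.65-fold and Flt3 16.2-fold higher in P10. Flt3 was at 198, 214 and 65.7 CPM in P10, lowest in replicate 3. Higher in P9 were Csf3r, Kit and the interleukin 1 family receptor genes Il1r1 (6.83-fold), Il1rl1 (6.77-fold) and Il1rap (2.65-fold), of which only Il1rap exceeded 20 CPM. The GM-CSF receptor alpha chain gene Csf2ra was at 274, 186 and 151 CPM in P9 and 259, 271 and 260 CPM in P10, with no call.

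Receptors that guide migration were divided. Of 34 chemoattractant receptor genes, 25 passed the filter, and 8 were called higher in P9 and 11 higher in P10. Over all genes tested these shares were 8.93% and 34.7%. The median of the list was -0.10, and 0.24 after rescaling. Fpr1, Cxcr2 and C5ar1 were on the P9 side. Ccr2, the receptor that brings monocytes out of the marrow, was at 14.6, 20.0 and 17.7 CPM in P9 and at 568, 495 and 453 CPM in P10 (28.3-fold; adjusted p = 3.2e-07). Cx3cr1, the fractalkine receptor gene, was at 3.66, 5.17 and 3.76 CPM against 207, 205 and 192 CPM (43.4-fold). Cxcr4, the marrow retention receptor gene, was at 373, 371 and 320 CPM in P9 and 304, 349 and 272 CPM in P10, with no call.

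Adhesion genes showed a similar division. Of 25 integrin subunits, 15 passed the filter, and 7 were called higher in P10 and 3 (Itgam, Itgb3 and Itgb2l) higher in P9 (median -0.88). Over all genes tested, 34.7% were higher in P10 and 8.93% higher in P9. Itga4 (9.75-fold) and Itgb7 (27.0-fold), which pair in the mucosal homing receptor, were higher in P10, as were the collagen receptor chain gene Itga1 (19.5-fold) and Itgb5 (7.89-fold). Itga4 was at 27.7, 36.7 and 43.0 CPM in P9 and at 344, 329 and 373 CPM in P10. Of 22 tetraspanins, 15 passed the filter, and 6 were called higher in P9 and 3 higher in P10 (median 0.55). After Cd9 came Tspan2 (4.88-fold, and 8.27-fold without P10 replicate 3), Cd81, Cd63, Cd82 (2.83-fold) and Tspan32 (2.38-fold) on the P9 side and Tspan31 on the P10 side (11.6-fold). Cd63, a granule and endosome membrane protein gene, was at 111, 132 and 160 CPM in P9 and 28.8, 27.9 and 86.0 CPM in P10. Of 10 SLAM-family genes, 6 passed the filter, and 5 were called higher in P10 and none in P9. These were Cd48, its ligand partner Cd244a, Ly9 (6.52-fold), Slamf7 (11.1-fold) and Slamf6, while Cd84 was at 253, 340 and 317 CPM in P9 and 289, 268 and 265 CPM in P10, with no call.

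Of 13 Fc receptor genes, 5 passed the filter, and Fcgrt, encoding the neonatal Fc receptor (14.6-fold), and the inhibitory receptor gene Fcgr2b (2.73-fold) were called higher in P10. Fcgr3 was at 248, 232 and 260 CPM in P9 and 269, 299 and 323 CPM in P10, with no call, and its small difference changed sign after rescaling. Of 51 paired and inhibitory myeloid receptor genes, 40 passed the filter, and 11 were called higher in P9 and 15 higher in P10. Over all genes tested these shares were 8.93% and 34.7%, and the list lay near the latter. Its median was -0.01, and 0.33 after rescaling. Cd33, a sialic acid-binding inhibitory receptor gene, was at 1413, 1547 and 1344 CPM in P9 and at 249, 241 and 182 CPM in P10 (6.44-fold higher in P9). The C-type lectin genes Clec4a1 (45.8-fold) and Clec4a3 (26.0-fold) and the lipid receptor gene Trem2 (39.1-fold) were higher in P10, and Trem1, an amplifier of neutrophil activation, was higher in P9 (log2 difference 2.54).

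Of 20 genes of Toll-like receptors and LPS co-receptors, 18 passed the filter, and 9 were called higher in P10 and 1, Cd14, higher in P9 (median -1.35), with 2 higher in P9 after rescaling or without P10 replicate 1, P10 replicate 2 or P9 replicate 3. Those higher in P10 included the endosomal receptor genes Tlr9, Tlr7 and Tlr8 and Unc93b1, the chaperone that delivers such receptors to endosomes (4.79-fold). Tlr9 was at 4.69, 3.52 and 1.35 CPM in P9 and at 124, 150 and 160 CPM in P10 (42.7-fold). Cd180 (30.1-fold) and Ly86, its partner (21.4-fold), and the adaptor gene Ticam2 (12.1-fold) also were higher in P10. Tlr4, the LPS receptor gene, was at 16.2, 19.8 and 37.7 CPM in P9 and 37.3, 33.7 and 52.9 CPM in P10, with no call.

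Secreted mediators differed in both directions. Of 35 cytokine and chemokine genes, 21 passed the filter, and 9 were called in each direction. The shares over all genes tested were 8.93% higher in P9 and 34.7% higher in P10. The median of the list was -0.24, and 0.09 after rescaling. Ccl9 was at 6.30, 8.31 and 10.3 CPM in P9 and at 366, 358 and 438 CPM in P10 (44.7-fold), and the chemokine gene Ccl6 (9.24-fold) and Tgfb1 (3.63-fold) were also higher in P10. The B-cell activating factor gene Tnfsf13b was at 126, 126 and 109 CPM in P9 and at 8.71, 12.1 and 21.0 CPM in P10 (8.89-fold). Il1rn, encoding the interleukin 1 receptor antagonist, was at 92.1, 92.5 and 112 CPM in P9 against 4.77, 5.91 and 13.7 CPM (12.6-fold), and Il1b itself at 10.8, 15.4 and 13.2 CPM against 2.47, 2.02 and 4.25 CPM (4.12-fold). Neither the cytokine nor its antagonist overlapped between groups, with P9 above, as for 15.8% of all genes tested (71.1% in either direction).

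Of 18 genes of leukotriene and prostaglandin synthesis, 11 passed the filter, and 4 were called in each direction (median 0.25). The shares over all genes tested were 8.93% higher in P9 and 34.7% higher in P10. After rescaling, 5 of the 11 were higher in P9 and 2 higher in P10. Alox5, encoding 5-lipoxygenase, was at 442, 438 and 338 CPM in P9 and at 27.9, 32.1 and 57.3 CPM in P10 (10.7-fold), and Lta4h, whose enzyme makes leukotriene B4, was 3.67-fold higher in P9. Ptgs1, encoding cyclooxygenase 1, was 2.80-fold higher in P9. Hpgd, which inactivates prostaglandins, was at 8.35, 15.0 and 5.78 CPM in P9 and at 458, 477 and 178 CPM in P10 (35.7-fold higher in P10). Pla2g7 was 2.09-fold higher in P10, a call lost after rescaling and without P9 replicate 3 (log2 difference -0.88). Of 9 genes of the phagocyte oxidase, all tested, 2 were called higher in P9 and none in P10 (median 0.43). Ncf1, encoding the p47phox subunit, was at 2269, 2129 and 1967 CPM in P9 and at 450, 484 and 628 CPM in P10 (4.11-fold), and Rac2 was 3.10-fold higher in P9. The catalytic subunit gene Cybb was at 1969, 2157 and 2460 CPM in P9 and 1988, 1972 and 1900 CPM in P10, with no call.

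Interferon response genes did not move as a group. Of 39 listed, 37 passed the filter, and 14 were called higher in P10 and 5 higher in P9 (median -0.72), near the shares of all genes tested, 34.7% and 8.93%. Without P10 replicate 3, in which the summed level of the list was 2975 CPM against 2008 and 2021 CPM, 9 were called higher in P10 and 7 higher in P9. Mx1, an antiviral GTPase gene, was at 1.03, 0.660 and 0.112 CPM in P9 and at 47.6, 43.8 and 72.4 CPM in P10 (52.3-fold), and Gbp3 (15.7-fold), Ifi27l2a (12.4-fold) and Gbp2 (2.93-fold) also were higher in P10. Oas3, an RNA-sensing synthetase gene, was at 136, 119 and 120 CPM in P9 and at 31.2, 27.8 and 75.0 CPM in P10 (3.07-fold higher in P9). Isg15 was at 3.96 to 7.46 CPM in P9 and 3.01 to 15.0 CPM in P10, with overlapping groups. Immediate early genes were likewise divided, with 3 of 18 tested higher in P9 and 7 higher in P10 (20 listed, median 0.16). The share higher in P10 lay near the 34.7% of all genes tested. Fos was at 2.71, 3.08 and 6.68 CPM in P9 and at 23.9, 24.5 and 38.6 CPM in P10 (6.61-fold), and Nr4a1, a factor of patrolling monocytes in mice, was 7.80-fold higher in P10. Egr1 and the stress-response gene Ier3 (3.90-fold) were higher in P9.

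Growth and division genes gave unequal results. All 49 listed genes of ribosome biogenesis passed the filter, and 43 were called higher in P10 and none in P9 (median -2.10). Noc2l, a nucleolar assembly factor gene, was at 8.16, 6.35 and 7.80 CPM in P9 and at 55.5, 64.1 and 55.6 CPM in P10 (7.44-fold; adjusted p = 3.5e-06). Nop56, encoding a small nucleolar ribonucleoprotein core protein, was 6.64-fold, Utp20 5.70-fold and Mybbp1a 5.05-fold higher in P10. For all of these the P11 and P12 means were higher still, as for Nop56 at 168 CPM in P11 and 117 CPM in P12 against 52.3 CPM in P10.

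Of 38 DNA replication genes, all tested, 20 were called higher in P10 and none in P9 (median -1.0). Over all genes tested, 34.7% were higher in P10, and 25.6% after rescaling. The DNA replication count fell to 12 after rescaling and ranged from 15 to 24 with 1 library left out. Cdt1, a replication licensing factor gene, was at 12.7, 9.74 and 17.8 CPM in P9 and at 38.1, 34.2 and 37.4 CPM in P10 (2.73-fold), and Fen1 (2.88-fold), Pola2 (2.83-fold) and Pole (2.30-fold) were also called, Pole not after rescaling. Of 40 mitosis genes, all tested, 1 was called higher in P9 and none in P10 (median 0.17), against 43.6% of all genes called in either direction. The 1 call, Ube2c, overlapped between groups and was lost without P9 replicate 3 (log2 difference 0.94) or without P10 replicate 1 (0.80) or 2 (0.93). Without P10 replicate 3, 3 mitosis genes were called higher in P9, and without P9 replicate 3, 1 (Racgap1) was called higher in P10. Mki67, the proliferation antigen gene, was at 442, 471 and 1018 CPM in P9 and at 406, 381 and 755 CPM in P10, and Plk1, a mitotic kinase gene, at 29.1, 29.3 and 44.6 CPM and 16, 21.3 and 31.9 CPM. Replicate 3 was the highest library of each group for both genes, and the spread within the groups exceeded the difference between them for Mki67 (log2 difference 0.29 ± 0.36).

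Of 36 genes of cell cycle exit and survival, 30 passed the filter, and 12 were called higher in P10 and 4 higher in P9 (median -0.79), shares near the 34.7% and 8.93% of all genes tested. Cdk4, a G1 cyclin-dependent kinase gene, was at 13.7, 10.7 and 16.6 CPM in P9 and at 82.3, 85.0 and 88.2 CPM in P10 (6.14-fold), and the pro-apoptotic gene Bax was 5.02-fold higher in P10. Bcl2, an anti-apoptotic gene, was at 1.97, 6.60 and 4.49 CPM in P9 and at 42.4, 37.5 and 41.7 CPM in P10 (9.23-fold), whereas its relative Bcl2l1 was 2.26-fold higher in P9. Of 28 glycolysis genes, 26 passed the filter, and 4 were called higher in P9 and 6 higher in P10 (median -0.13), which became 9 and 4 (median 0.18) after rescaling. Slc2a3, encoding the glucose transporter GLUT3, was at 690, 801 and 678 CPM in P9 and at 9.43, 11.5 and 21.7 CPM in P10 (52.2-fold; adjusted p = 1.6e-06). Pfkfb4 (2.91-fold) and Hk3 (2.58-fold) were also higher in P9, and the aldolase gene Aldoc was 5.67-fold higher in P10.

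Few markers of other lineages passed the filter. Of 25 genes of basophils, mast cells and eosinophils, 5 passed the filter, and 4 were called higher in P10 and 1 higher in P9. The exception, Hdc, which encodes histidine decarboxylase and is also found in mouse myeloid progenitors, was at 184, 156 and 154 CPM in P9 and at 1.70, 0.751 and 4.76 CPM in P10 (67.7-fold), while the eosinophil genes Epx and Prg2 stayed below 2 CPM in all 6 libraries. Of 26 T and NK cell genes, 5 passed the filter, 2 called in each direction, and Cd3g stayed below 0.5 CPM. Of these, the count higher in P9 was 1 without P9 replicate 3, where Bcl11b was lost (log2 difference 0.97), and 3 without P10 replicate 3. Of 21 B and plasma cell genes, 5 passed the filter, and Ighm (9.41-fold) and Cd22 (9.81-fold) were called higher in P10, while Cd79a stayed below 0.4 CPM. Of 18 erythroid genes, 8 passed the filter and 1, Slc4a1, was called higher in P9, rising to 3 after rescaling and to 4 without P9 replicate 3. The summed erythroid level was 110 to 238 CPM in P9 and 104 to 127 CPM in P10. Of 15 megakaryocyte and platelet genes, 5 passed the filter and Gp9, Itgb3 and Clec1b were called higher in P9, while Pf4 stayed below 0.4 CPM. Of 22 stromal and endothelial genes, 6 passed the filter, with 3 called higher in P9, among them the collagen gene Col1a1 at 17.8, 13.1 and 9.37 CPM against 0.877, 1.17 and 1.46 CPM, and 2 higher in P10. Whether small numbers of such cells entered the gates was not tested.

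For most genes that separate P9 from P10, the means of the Mac1- sub-populations lay beyond that of P10, though by small median differences. Of the 1110 genes higher in P9, the mean of P11 was below that of both P9 and P10 for 63.5%, between them for 34.1% and above both for 2.43%, and the shares for P12 were 68.3%, 30.5% and 1.17%. Of the 4315 genes higher in P10, P11 was above both for 67.4% and P12 for 64.9%. Over the genes higher in P9, the median log2 difference of group means from P10 was -0.23 for P11 and -0.29 for P12. Over those higher in P10, it was 0.39 for P11 and 0.23 for P12. These medians are about the size of the 0.32 shift made by rescaling, and P11 and P12 were not rescaled. Mmp9 followed the first pattern, with 5.67 ± 3.32 CPM in P11 and 8.04 ± 4.59 CPM in P12 (SD, n = 3) against a mean of 28.8 CPM in P10. Irf8 followed the second, with 456 ± 59.9 CPM in P11 and 563 ± 72.1 CPM in P12 against 375 CPM in P10. The P11 and P10 libraries of Irf8 overlapped. Csf1r and Fn1, chosen after their values were seen, had P11 and P12 means between those of P9 and P10. Csf1r had a mean of 842 CPM in P10, 290 ± 36.3 CPM in P11 and 467 ± 185 CPM in P12, and Fn1 had a mean of 2205 CPM in P10, 94.2 ± 22.3 CPM in P11 and 232 ± 269 CPM in P12. P12 replicate 3 stood apart and raised both P12 means. The P12 libraries were at 353, 367 and 680 CPM for Csf1r and at 94.6, 59.3 and 541 CPM for Fn1. The genes were chosen by the P9 and P10 values, so these shares are a description without a test.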

How the data were processed

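Gene expression was measured in 12 libraries of 100 sorted ML23 cells, of which 6 were compared. Per the labels and the study's methods, the authors sequenced amplified cDNA as single reads, aligned them to mm10 with STAR 2.5.3a and quantified genes of Ensembl 92 in Partek. The methods name DESeq2 3.5 for the authors' normalisation and testing, and the submitters' processing notes also name bcl2fastq 2.17, Bowtie2 and DESeq. The sources differ on the library kit, so strand use in counting is unsettled. The deposited CPM values are alignments per 1000000 alignments of each library, with 0.0001 added, which was subtracted here. CPM is not corrected for gene length, so the order of genes by abundance is one of alignments and not of transcript numbers. The table holds no genes of the mitochondrial chromosome, and Hoxb5 was not analysed here. Library depth was estimated from the smallest step between low values. Since only 76.8 to 82.5% of the low values of the 6 libraries came out within 0.1 of a whole number at that step, whole reads were not recovered and no count model was run.

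Genes that reached 1 CPM in 3 or more of the 6 libraries entered limma 3.58.1 (R 4.3.3) on log2(CPM + 0.5), with an intensity trend and Benjamini-Hochberg adjustment. A gene was called at an adjusted p under 0.1 and more than 2-fold. An exact permutation test of 3 against 3 libraries cannot go below p = 0.1 (two-sided), so none is given. Rescaling used median ratios over genes at 10 CPM or more in all 6 libraries. Tables were handled in pandas 2.3.3 and numpy 2.4.6 under Python 3.11.15, and matplotlib 3.10.9 drew the figures. The fit was tested on simulated data before use.

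Named genes were the sort markers, the 12 coding genes in each direction that differed most, and the 5 most abundant per direction. Both of these sets were taken from calls without overlap between groups, and the 12 had a mean of 10 CPM or more. Also named were the 4 members of each of 36 lists with the smallest adjusted p, and defining members without a call. Other list members named in the text were chosen after their values were seen. The members and lists were chosen with earlier results of these data known. Alternatives covered the pseudocount, the filter, scaling, the libraries fitted, the replicate block, the trend, gene biotype, the threshold, the fold and each library left out.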

Additional observations from a re-analysis of the deposited data

How the results depend on the processing

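The counts of genes higher in P9 (1110) and in P10 (4315) stayed within 1.5 times their values under every alternative except a filter of 10 CPM, which tests fewer genes and gave 697 and 2619. With each library left out in turn they ranged from 1068 to 1183 and from 4093 to 4570. Without a filter the counts were 1281 and 4710. The median log2 difference over all genes (-0.60) was -0.29 after rescaling, -0.31 without a filter, -0.51 with a pseudocount of 2, and -0.65 to -0.57 with 1 library left out. Of the 159 named genes, 142 kept direction and call under every alternative in which they were tested (141 of the 159 had a value with the filter of 10 CPM and 158 with protein-coding genes alone), while 9 changed with a library left out and 7 with rescaling. Hoxa9 changed sign, at -0.021 with a pseudocount of 0.1, -0.08 without P10 replicate 3, -0.23 without P9 replicate 1 and -0.21 without P9 replicate 2 (range -0.23 to 0.54 with 1 library left out), and Fcgr3 was at 0.072 after rescaling, none of them called. The cause was not tested. Replicate numbers are shared between the groups, but deviations of same-numbered libraries correlated at 0.04, 0.16 and 0.26, and P9 replicate 2 correlated better with P10 replicate 1 (0.18), so the libraries were not treated as paired. A fit with the replicate block called 1119 and 4347 genes. Genes near 1 CPM rest on 13.7 to 21.3 alignments, and 100 cells per library limit how well rare transcripts are sampled.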

Other observations

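The translation apparatus, examined after its values were seen, was higher in P10. Of 79 genes of cytosolic ribosomal proteins tested, 78 were called higher in P10 and none in P9, with a median log2 difference of -2.22 (75 calls and -1.88 after rescaling), against -0.60 over all genes. Processed copies of these genes may share reads with them. Of 78 mitochondrial ribosomal protein genes, 46 were called higher in P10 (30 after rescaling), of 65 initiation and elongation factor genes 36 (25 after rescaling), and of 17 cytosolic aminoacyl-tRNA synthetase genes 11 (5 after rescaling), with none higher in P9.

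Other housekeeping families lay near the median of all genes. Of 37 proteasome subunit genes, 8 were called higher in P10 (median -0.64), and 1 after rescaling. Of 37 nuclear-encoded genes of respiratory complex I, 12 were called higher in P10 (median -0.64), and after rescaling 4 were higher in P10 and 1 higher in P9. Of 15 vacuolar ATPase subunit genes, 1 was called in each direction, with Atp6v0a1 higher in P9.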
